A study of Mus musculus with 188 samples.

Results

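The centromere-proximal ends of the mouse autosomes were followed through S phase in single embryonic stem cells. Mouse chromosomes are acrocentric, so the first assembled sequence of each chromosome lies next to its centromere. The ends were taken as the 50 kb bins from 3 Mb to under 8 Mb of chromosomes 1 to 19 (mouse genome mm10, GRCm38) that had a binarized replication state. The rule left 1736 of 1900 possible bins, out of 46743 autosomal bins with a state, and it used no measured timing. The other 164 slots had no state.

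Nuclei from a pair of mESC (mouse embryonic stem cell) lines were sorted 1 by 1 on DNA content, and their genomes amplified and sequenced, so that replicated DNA could be told from unreplicated DNA by its copy number. H129-2 is a haploid line of strain 129, and F121-9 is a diploid hybrid of 129 and Castaneus (cas) in which reads over sequence variants can be given to a homolog; both were grown in N2B27 medium with 2i and LIF. Values could be tied to 138 of 188 labelled cells, 75 of H129-2 and 63 of F121-9, all in S phase. The labels name wells but no cultures or plates, so each line counts as 1 sample: values below carry the SD over cells, no test was made between lines or regions, and ploidy, strain and any plate effect cannot be told apart.

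Centromeres of mouse chromosomes are built of satellite repeats that the assembly leaves out, packed as constitutive heterochromatin, and such heterochromatin is known for replicating in the second part of S phase. The single-copy DNA beside it is a patchwork of replication domains, as elsewhere in the genome: gene-rich, GC-rich domains tend to replicate early and gene-poor, AT-rich ones late. Between them lie timing transition regions. DNA copy number holds no expression values, so the cell type could not be checked against marker genes.

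The assembled sequence began at base 3000001 of 13 chromosomes, 3050001 of 4 and 3100001 of 2. The first 150 assembled bases of 4 chromosomes are shown because their ends cover the range of timing described below, with chromosomes 19 and 11 early, chromosome 8 split and chromosome 3 late. They are from the plus strand of chr19:3000001-3000150, chr11:3100001-3100150, chr8:3000001-3000150 and chr3:3000001-3000150 (RefSeq, GRCm38.p6), with CpG dinucleotides in capitals.
chromosome 19: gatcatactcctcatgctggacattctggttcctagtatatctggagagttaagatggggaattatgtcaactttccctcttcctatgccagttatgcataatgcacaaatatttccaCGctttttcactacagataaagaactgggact
chromosome 11: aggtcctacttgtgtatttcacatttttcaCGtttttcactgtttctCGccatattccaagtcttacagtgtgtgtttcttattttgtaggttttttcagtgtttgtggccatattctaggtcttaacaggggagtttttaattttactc
chromosome 8: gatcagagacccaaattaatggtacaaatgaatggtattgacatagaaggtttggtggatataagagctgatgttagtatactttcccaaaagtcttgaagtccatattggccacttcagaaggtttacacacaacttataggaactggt
chromosome 3: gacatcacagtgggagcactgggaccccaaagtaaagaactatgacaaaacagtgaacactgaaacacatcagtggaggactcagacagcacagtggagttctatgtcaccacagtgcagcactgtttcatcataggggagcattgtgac
Soft-masking in the assembly marked 129 of these bases on chromosome 19 as repeats, 43 on chromosome 11, 22 on chromosome 3 and 0 on chromosome 8. The early end of chromosome 19 thus opened with more masked bases than the late end of chromosome 3. Single stretches of this length do not stand for the whole end, whose composition is given further on.

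As a group the ends replicated at about the same time as the rest of the autosomes, with a wide range among chromosomes. Haploid cells had replicated 60.5% ± 19.3 of their proximal bins and 60.9% ± 16.8 of the other autosomal bins (SD, n = 75). The difference within a cell was -0.47 ± 4.17 percentage points and ran from -9.84 to 6.96, with 33 cells higher and 42 lower in the proximal bins. Diploid cells had replicated 52.96% ± 11.02 of proximal and 53.9% ± 9.50 of other bins (SD, n = 63). The difference was -0.96 ± 5.54 points with 27 cells higher and 36 lower. In both lines the mean difference was smaller than the spread between cells.

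**Figure D1:**
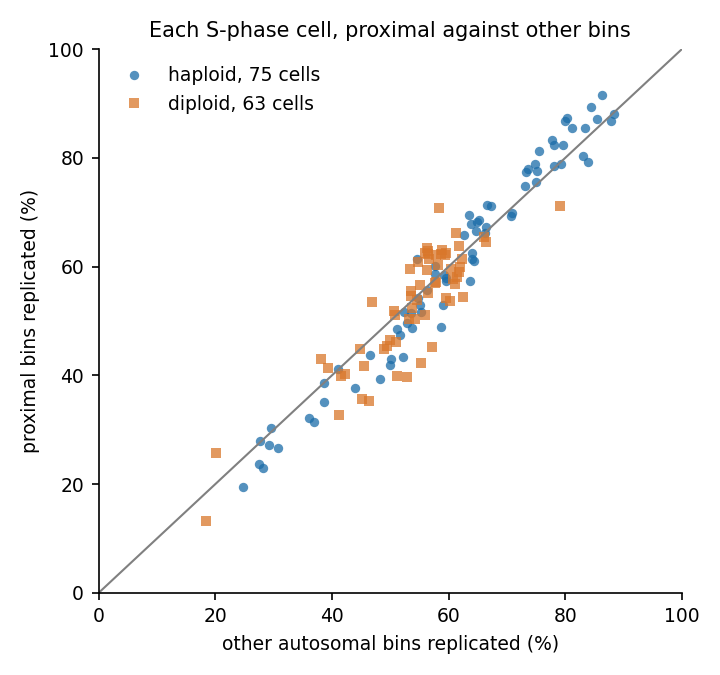
Percentage of proximal bins replicated (y axis) against percentage of all other autosomal bins replicated (x axis), 1 point per cell, with the line of equal values. The 75 haploid and 63 diploid cells lie on both sides of the line, and the lowest and highest differences, -13.1 and 12.5 points, were those of diploid cells.

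Early and late DNA are best told apart in the middle of S phase, so cells with 40% to 60% of autosomal bins replicated were used for most of what follows (25 haploid and 45 diploid, called mid-S-phase cells). Here the haploid cells were lower in the proximal bins by 3.09 ± 3.90 points on average, with 50.3% ± 6.84 against 53.4% ± 4.88 and 21 of 25 cells lower. The diploid cells differed by -0.73 ± 6.03 points, with 23 of 45 cells lower. Among haploid cells with more than 60% replicated the sign was the other way, at 1.91 ± 3.28 points (SD, n = 39) with 27 cells higher, whereas the 14 diploid cells of that range were at -2.50 ± 3.58 with 2 higher. The direction of the pooled difference also turned with the length taken: over the first 3 Mb alone, proximal bins were higher by 5.10 ± 4.17 points in haploid cells and 4.27 ± 5.43 points in mid-S-phase cells of both lines.

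The telomere-proximal ends, the last 5 Mb of bins with a state on each chromosome (1879 bins), served as the other kind of chromosome end. In mid-S-phase cells 63.9% of them were replicated, 12.2 ± 7.55 points more than of the proximal ends, and they were higher in 69 of 70 cells. This is a share pooled over all chromosomes, and the cells share the same chromosomes.

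Each bin was given a scheduled time, its percentile rank in the mean smoothed score over all cells, scaled to a 10 h S phase. Among proximal bins, the median of the 1645 with enough scores was 5.47 h, against 4.97 h for 43467 other bins and 3.67 h for the telomere-proximal ends. The spread of proximal medians over 18 chromosome ends was 1.82 h (SD), larger than the 0.50 h between the groups. The ends were poor in both extremes: 4.68% of proximal bins were scheduled in the first hour and 6.505% in the last, against 10.2% and 10.1% of other bins.

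Individual ends ranged from almost fully replicated to mostly unreplicated in the same cells. Over the 18 ends with at least 50 bins, the mean in mid-S-phase cells ran from 15.1% on chromosome 3 to 93.9% on chromosome 19, with a median of 53.03% and an SD of 21.9. All 449 other windows of 5 Mb ran from 0.45% to 99.3%, with a larger SD of 28.4. Of those windows 33 lay under 10% and 46 over 90%; of the ends, none and 1 did. Compared with the rest of the same chromosome, 10 ends were more and 8 less replicated. Chromosome 14 is left out of these counts because 6 of its 100 slots had a state.

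**Figure D2:**
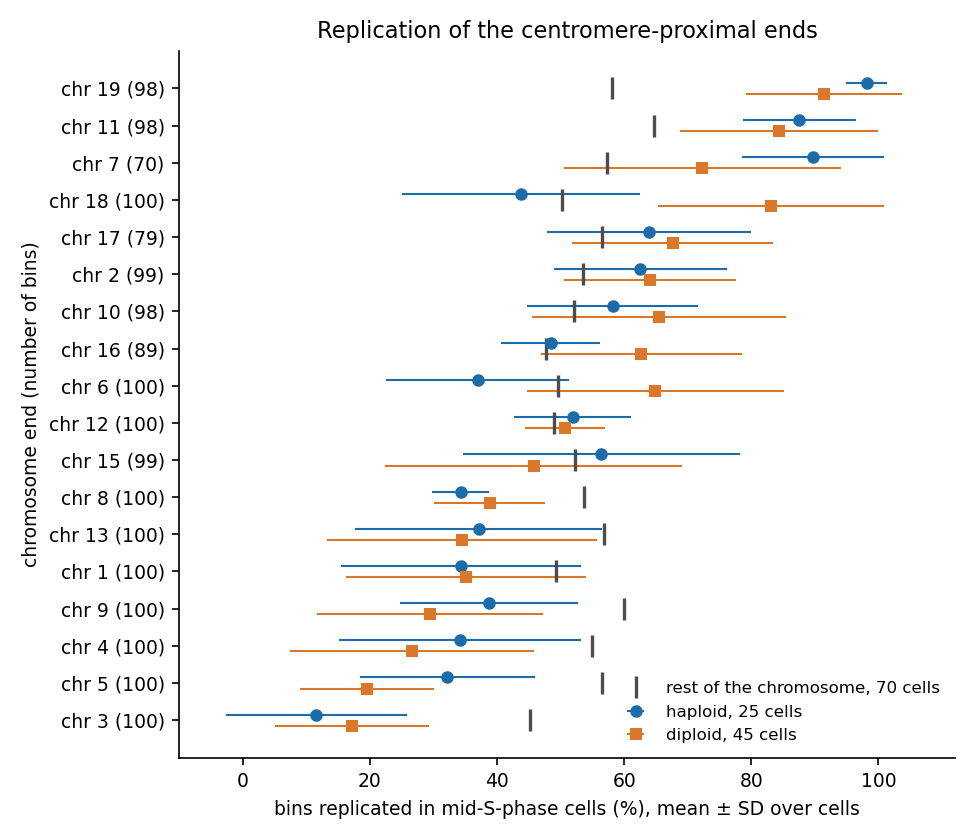
Percentage of bins replicated (x axis, mean ± SD over mid-S-phase cells) for each centromere-proximal end (y axis, number of bins in brackets), haploid and diploid cells apart, with the mean of the rest of each chromosome as a bar. Chromosomes 19, 11 and 7 are at the top and chromosomes 3, 5 and 4 at the bottom, and the lines part most on chromosome 18, at 43.8% and 83.1%.

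Chromosome 19 had the earliest end. Its 98 bins were 98.1% ± 3.21 replicated in mid-S-phase haploid cells (lowest 90.8%, median 100%, highest 100%) and 91.5% ± 12.3 in diploid cells (lowest 48.98%, median 94.9%, highest 100%), and in 35 of the 70 cells every bin was replicated. The rest of chromosome 19 stood at 58.1%, below its end in 68 of 70 cells. Among the 8 cells with under 30% of the genome replicated, the end was on average 73.1% ± 35.65 replicated, with 1 cell at 0% and 1 at 100%. Its first genes by position are Ighmbp2 (a helicase), Mrpl21 (a mitochondrial ribosomal protein), Cpt1a (the carnitine palmitoyltransferase of fatty acid oxidation), Tesmin and Gal (galanin), with 84.4% to 100% of diploid cells replicated.

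Chromosome 11 followed, with 87.6% ± 8.92 in haploid cells (70.4%, 87.8% and 100% as lowest, median and highest) and 84.4% ± 15.6 in diploid cells (15.3%, 87.8% and 100%). It holds the longest early stretch of any end when slots without a state count as breaks, 4.0 Mb from 3.1 to 7.1 Mb. Sfi1, Drg1, Eif4enif1, Patz1 and Pik3ip1 are its first genes. Chromosome 7, with 70 bins, had 89.7% ± 11.2 and 72.3% ± 21.8. The neighbours in this order overlapped: chromosomes 11 and 7 differed by less than the SD over cells in either line. Chromosome 14 had 92% ± 25.5 and 97.8% ± 14.9 over its 6 bins.

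By median scheduled time the latest end was that of chromosome 8, at 8.80 h, with chromosome 3 at 7.76 h. By the share replicated in mid-S-phase cells, chromosome 3 had the latest end. Its 100 bins were 11.6% ± 14.3 replicated in haploid cells (lowest 0%, median 3%, highest 47%) and 17.1% ± 12.1 in diploid cells (lowest 0%, median 15%, highest 43%), with no replicated bin in 15 of 70 cells. The rest of chromosome 3 was at 45.1%, above its end in 69 of 70 cells. In the 11 cells with over 80% of the genome replicated, all haploid, its mean was 60.8% ± 22.5, and 1 cell had completed it. Its first genes are Hnf4g (a nuclear receptor), Zfhx4 (a homeodomain zinc finger factor), Pex2 (a peroxisome assembly factor), Gm8797 and 1700008P02Rik, each replicated in 16% or fewer of haploid cells.

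By the share replicated in mid-S-phase cells, chromosomes 5 and 4 came next from the late side. They had 32.2% ± 13.7 and 34.2% ± 19.1 in haploid cells and 19.6% ± 10.5 and 26.6% ± 19.2 in diploid cells. They did not differ from each other beyond the SD. Neither end was late throughout: on chromosome 5 the first Mb was 67.5% replicated and the step from 6 to 7 Mb 1.71%, and on chromosome 4 the first Mb was 66.1% and the last 8%. On chromosome 5 Cdk6 (a cyclin-dependent kinase), Fam133b, 1700109H08Rik and Rbm48, among the first genes, were at 88.8% to 92% in haploid and 70.2% to 77.8% in diploid cells. On chromosome 4 the first were Vmn1r2 and Vmn1r3 at 76% and 42.2%, Tmem68 at 84% and 60%, Tgs1 at 92% and 67.8%, and Lyn (a Src-family kinase) at 100% and 71.7%.

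The pooled profile fell with distance from the 3 Mb mark. In mid-S-phase cells the 5 successive steps of 1 Mb were replicated to 61.2% ± 9.86, 60.3% ± 8.56, 50.96% ± 9.30, 43.8% ± 9.79 and 42.04% ± 11.2 (SD, n = 70). The outermost minus the innermost step came to -19.1 ± 9.75 points and was below 0 in 69 of 70 cells, at -22.5 ± 8.60 in haploid and -17.3 ± 9.96 in diploid cells. Between chromosomes, however, there was no common slope. Of 16 ends with at least 10 bins in both steps, 10 fell and 6 rose, from -93.4 points on chromosome 8 to 63.9 points on chromosome 15, with a mean of -17.7 and an SD of 45.8. The same difference over 433 other windows averaged -0.43 with an SD of 46.05, and 53.3% of them fell. Cells share the same chromosomes, so the 69 of 70 cells describe these 19 sequences and do not count as repeats of the slope.

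**Figure D3:**
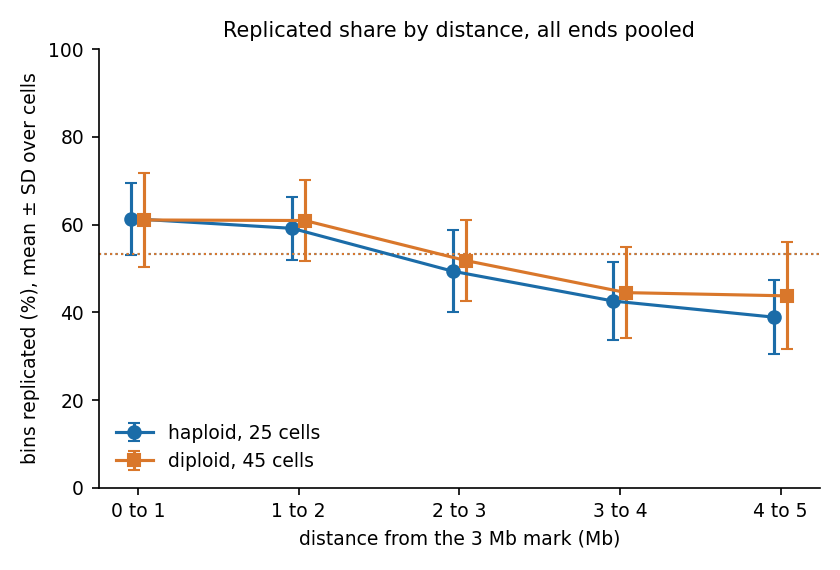
Percentage of bins replicated (y axis, mean ± SD over mid-S-phase cells) in steps of 1 Mb from the 3 Mb mark (x axis), all chromosome ends pooled, for 25 haploid and 45 diploid cells. Dotted lines are the means of the other autosomal bins, 53.4% and 53.2%. Both lines fall from about 61% in the first step to 38.9% and 43.8% in the last.

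The steepest falls were on chromosomes 8, 12 and 2. On chromosome 8 the steps were 94.9%, 80.9%, 8.07%, 0.79% and 1.5%. Its early part, from 3.0 to 4.55 Mb, holds 39 protein-coding genes, among them Insr (the insulin receptor, 87.5% of mid-S-phase cells replicated), the Cd209 lectin cluster and Elavl1. Its late part, from 5.25 to 8.0 Mb, holds none, was 0% replicated in haploid and 2.46% in diploid cells, and was scheduled at 9.74 h. In the 11 cells past 80% of S phase this end was still at 53.5% ± 7.17, the lowest of any end. On chromosome 12 the steps were 94.8%, 99.6%, 46.4%, 5.36% and 9.57%, and on chromosome 2 they were 65.6%, 87.5%, 96.2%, 66.1% and 2.29%. Chromosome 15 went the other way, from 17.7% in the first step to 81.6% in the last.

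**Figure D4:**
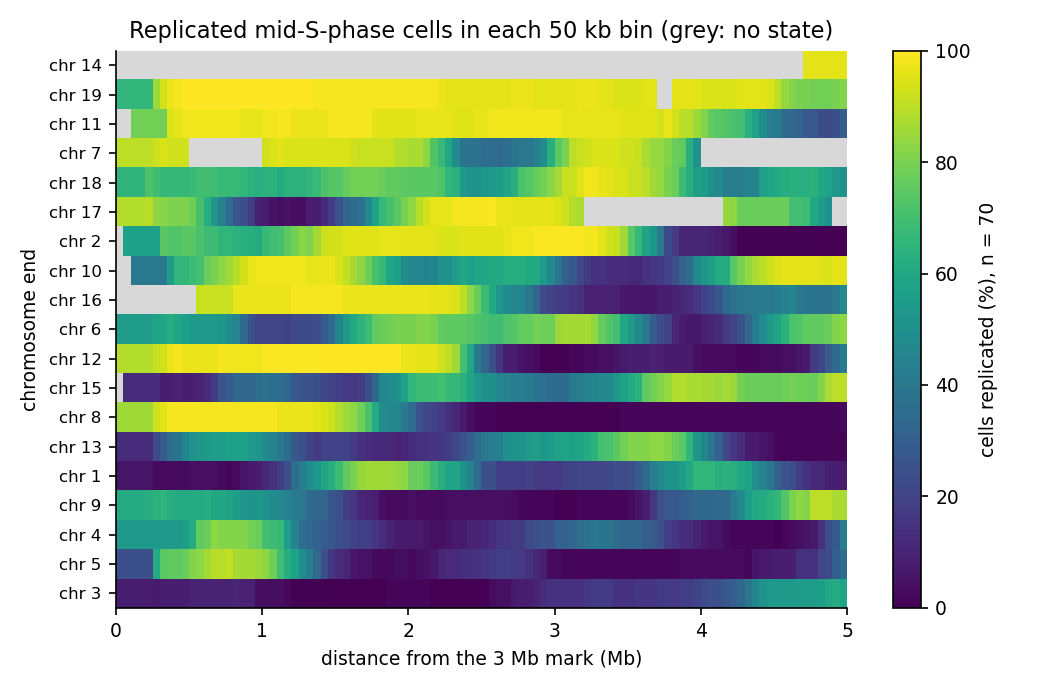
Colour gives the percentage of the 70 mid-S-phase cells in which each 50 kb bin was replicated, 0% to 100%. Rows are chromosome ends, the most replicated at the top, and the x axis is distance from the 3 Mb mark in Mb. Grey slots had no state. Chromosome 19 is early almost throughout, chromosome 3 late almost throughout, and chromosomes 8, 12 and 2 pass from early to late.

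A bin was called early when it was replicated in at least 75% of the mid-S-phase cells of each line, and late at no more than 25% of each. Early bins made up 511 proximal bins, or 29.4%, and late bins 497, or 28.6%. Over all autosomal bins 39.4% were early and 33% late, so the proximal ends held fewer of both and more of what lies between. Unbroken stretches of at least 0.5 Mb numbered 17 early, on 12 ends, and 17 late, on 13 ends. Their composition differed: protein-coding genes stood at 21.1 per Mb in early and 0.897 per Mb in late stretches, GC content at 45.5% and 38.7%, and repeat-masked sequence at 31.9% and 42.5%.

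The longest early stretches were the 4.0 Mb of chromosome 11 with 81 genes, 3.45 Mb of chromosome 19 (from 3.25 to 6.7 Mb) with 150 genes, 2.35 Mb of chromosome 12 (from 3.0 to 5.35 Mb) with 23 genes and 2.25 Mb of chromosome 2 (from 4.25 to 6.5 Mb) with 18. The longest late stretches were 4.15 Mb of chromosome 3 (from 3.0 to 7.15 Mb) with 5 genes, 2.75 Mb of chromosome 8, 2.15 Mb of chromosome 12 (from 5.6 to 7.75 Mb) with 0 genes and 2.1 Mb of chromosome 9 (from 4.6 to 6.7 Mb). The 5 genes of the chromosome 9 stretch include Casp1, Casp4 and Casp12, caspases of inflammation and stress. Late DNA thus reached the first assembled bins of chromosomes 1, 3 and 15, and early DNA those of chromosomes 7, 8, 11, 12 and 17.

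Across the 18 ends the replicated percentage of mid-S-phase cells rose with GC content (Pearson r = 0.920), CpG density (r = 0.878) and protein-coding genes (r = 0.724), and fell with repeat content (r = -0.576). Over the 449 other windows the same values were 0.881, 0.847, 0.646 and -0.595. Ends and windows share cells and processing, so these are descriptions. GC content was close in both, at 41.7% ± 2.50 in the ends and 41.9% ± 2.94 in other windows, whereas repeats covered 38.6% ± 7.53 of the ends and 33.1% ± 5.75 of the windows (SD over windows). The chromosome 3 end had the lowest GC content, 38.1%, and 8 genes, and the chromosome 19 end the highest, 47.7%, and 185.

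Fixed lists of genes were then placed on these stretches. The list of 34 developmental, signalling and nuclear RNA genes was drawn up for these ends with earlier results of these data known. That all 34 lay in proximal bins with a state is therefore no result. Of them 15 were early and 6 late, with a median of 80% of mid-S-phase cells replicated, and these counts describe the listed genes alone. Over all 764 protein-coding genes in the ends 532 were early and 31 late, with a median of 95%. Neighbouring genes share bins and segments, so these counts are not independent.

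Among secreted factors and receptors, the cytokine genes Lif and Osm on chromosome 11 stood at 100% replicated in the haploid and 95.6% in the diploid line, at a scheduled 1.77 h. Lif is the factor added to the medium of these cells. The genes of its receptor subunit Lifr and of the related Osmr, both on chromosome 15, were at 92% and 96% in haploid and 82.6% and 84.4% in diploid cells. The growth hormone receptor gene Ghr lies on the same end and was at 9.33% and 8.89%, scheduled at 7.26 h. Fzd1, a Wnt receptor, was at 0% and 3.33%. Of these receptors, Lifr, Osmr and Insr were early and Ghr and Fzd1 late.

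Promoters of 5 genes from early and late stretches are shown to set their CpG content against their timing, from 250 bases before to 50 after the start of transcription (RefSeq, GRCm38.p6, 5′ to 3′ on the gene's strand, CpG in capitals). They lie at chr11:4257318-4257617 (Lif, plus), chr15:7129322-7129621 (Lifr, plus), chr16:4213355-4213654 (Crebbp, minus), chr5:4758167-4758466 (Fzd1, minus) and chr15:3583303-3583602 (Ghr, minus).
Lif: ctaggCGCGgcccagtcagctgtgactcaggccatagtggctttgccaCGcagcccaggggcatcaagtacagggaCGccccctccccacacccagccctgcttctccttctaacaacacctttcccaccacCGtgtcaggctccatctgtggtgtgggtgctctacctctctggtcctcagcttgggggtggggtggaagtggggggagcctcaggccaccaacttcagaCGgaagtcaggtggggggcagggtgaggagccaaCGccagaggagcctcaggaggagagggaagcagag
Lifr: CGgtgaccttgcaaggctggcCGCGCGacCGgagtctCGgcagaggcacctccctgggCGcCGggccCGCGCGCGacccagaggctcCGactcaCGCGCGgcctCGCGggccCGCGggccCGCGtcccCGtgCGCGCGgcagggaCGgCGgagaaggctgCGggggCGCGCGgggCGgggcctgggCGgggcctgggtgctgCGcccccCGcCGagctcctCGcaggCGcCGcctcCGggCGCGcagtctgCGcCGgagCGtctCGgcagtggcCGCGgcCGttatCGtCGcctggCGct
Crebbp: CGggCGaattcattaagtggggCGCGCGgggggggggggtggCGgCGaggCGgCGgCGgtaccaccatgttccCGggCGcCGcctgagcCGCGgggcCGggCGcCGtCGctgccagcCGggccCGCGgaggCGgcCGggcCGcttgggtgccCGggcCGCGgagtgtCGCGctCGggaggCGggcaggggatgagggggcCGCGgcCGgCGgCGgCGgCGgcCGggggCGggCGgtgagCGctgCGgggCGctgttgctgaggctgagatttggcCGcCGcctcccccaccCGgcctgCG
Fzd1: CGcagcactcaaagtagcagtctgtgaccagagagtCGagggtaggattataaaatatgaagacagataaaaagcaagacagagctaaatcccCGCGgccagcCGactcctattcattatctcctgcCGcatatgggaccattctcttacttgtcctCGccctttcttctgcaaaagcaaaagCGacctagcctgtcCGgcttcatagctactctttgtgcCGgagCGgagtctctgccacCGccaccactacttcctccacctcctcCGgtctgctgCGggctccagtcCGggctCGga
Ghr: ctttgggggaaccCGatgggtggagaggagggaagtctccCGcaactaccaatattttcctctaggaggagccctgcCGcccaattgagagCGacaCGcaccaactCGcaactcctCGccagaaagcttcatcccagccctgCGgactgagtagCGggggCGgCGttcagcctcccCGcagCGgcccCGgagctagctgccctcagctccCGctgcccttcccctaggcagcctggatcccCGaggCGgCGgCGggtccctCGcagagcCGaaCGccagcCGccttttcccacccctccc
The early genes Lif, Lifr and Crebbp had 7, 53 and 49 CpG. The late genes Fzd1 and Ghr had 16 and 23, so the order of CpG content was not the order of timing. The Lifr promoter shown, from base 7129322, lies inside the gene as annotated, which begins at 7090614. For each gene 1 listed promoter was taken, and others were not counted. Over promoters the median was 17 CpG for 390 matched protein-coding genes of early stretches and 6 for 12 of late stretches. It was 7 for all 27025 genes of the promoter set, which was not filtered by gene type.

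Chromatin and transcription regulators, and further listed genes of other kinds, were spread from early to late. Dnmt3a, the de novo DNA methyltransferase, and the neighbouring hormone precursor gene Pomc on chromosome 12 were at 100% in haploid and 96.7% in diploid cells, scheduled at 0.50 and 0.53 h. Crebbp (a histone acetyltransferase, chromosome 16) was at 97% and 97.8%, and Arid1b (a subunit of a chromatin remodeller, chromosome 17) at 91% and 92.2%. On chromosome 19, Rela (a subunit of NF-κB), Fosl1 (a subunit of AP-1), Cfl1 (cofilin) and the nuclear RNA genes Malat1 and Neat1 were all at 100% in haploid and 93.3% to 95.6% in diploid cells, as was Nf2 (merlin, chromosome 11) at 100% and 92.8%. Late members were Hnf4g at 12% and 8.89%, the limb and craniofacial homeobox genes Dlx5 and Dlx6 at 4% and 10%, and Tox, a nuclear factor of T cells, at 16% and 18.4%. Sox17, an endoderm regulator, was between them at 72% and 57.8%, as were St18 at 30.2% and 45.2%, Klf6 at 68% and 48.9%, Esr1 at 75.1% and 61.1% and Igfbp3 at 68% and 73.3%.

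Of the gene families, all 10 measured olfactory receptor genes (Olfr, on chromosomes 7 and 16) were early, with 91.4% to 97.1% of mid-S-phase cells replicated. The 14 vomeronasal Vmn1r genes, on chromosomes 4, 7 and 18, were neither early nor late by limits that both lines must meet. Their values ran from 34.3% to 82.9% in the pooled lines, which were far apart at some genes. The bin of Vmn1r59 and Vmn2r28 was at 72% in haploid and 17.8% in diploid cells, and the bins of Vmn1r61 and Vmn1r62 at 68% and 16.7%. Values by line were not compared for the whole family. Of 9 Vmn2r genes 1 had a state, at 37.1% in the pooled lines. Zinc finger genes (Zfp) were early in 16 of 19 cases (84.2%), against 69.6% of all protein-coding genes in the ends. Pooled over the lines, values of the olfactory and vomeronasal receptor genes did not overlap, but neighbouring genes share bins and segments. The Olfr genes lay in a 0.7 Mb early stretch of chromosome 7 and a 1.85 Mb one of chromosome 16. They therefore do not count as 10 separate values.

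Imprinted genes, which are expressed from 1 parental allele, lay on chromosomes 6 and 7. On chromosome 6 Calcr, Sgce, Peg10, Ppp1r9a and Asb4 were at 30.7% to 59.3% in haploid and 63.7% to 92.2% in diploid cells. The whole chromosome 6 end was at 36.9% and 64.9%, so the gap between lines was not particular to these genes. On chromosome 7 Peg3 and Zim1 were at 92% and 80%, and Usp29 at 76% and 70%. Unlike homologs were seen at Calcr in 2, Sgce in 1 and Asb4 in 1 of 63 diploid cells. The 129 homolog was the replicated one each time, and the other 5 genes had no such call. All these calls came from cells F11 and G4, and F11 carried more such stretches than any other cell. Over all autosomal bins 40.1% were unlike in at least 1 diploid cell. In the ends 129 was the replicated homolog in 31 of 47 stretches.

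The lines were next compared at each end. Their order of ends was alike, with a Pearson r of 0.811 over the 18 ends, and 12 ends differed by less than 10 points between mid-S-phase haploid and diploid cells. The gap between lines spread more over the ends than over other windows, with an SD of 14.1 against 7.09 points. Chromosomes 18 and 6, at -39.3 and -28.0 (haploid minus diploid), weigh most in the SD of the ends, and the SD without them was not calculated. Both passed 20 points, as did 5 of 449 other windows. None of the other windows lay as far from 0 as the chromosome 18 end.

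On chromosome 18 the haploid cells were at 43.8% ± 18.7 (lowest 12%, median 41%, highest 100%) and the diploid cells at 83.1% ± 17.8 (lowest 16%, median 89%, highest 100%). The diploid median lay above the haploid one, but the ranges overlapped. The rest of the chromosome was alike in the lines, at 48.4% and 51.1%. In cells with 50% to 60% replicated the end was at 49.8% ± 16.9 (SD, n = 19) in haploid and 89.2% ± 9.98 (SD, n = 35) in diploid cells, and at 60% to 70% it was at 75.4% ± 15.04 (SD, n = 14) and 89.3% ± 11.3 (SD, n = 13). The median scheduled time taken from each line alone was 5.81 h in haploid and 3.63 h in diploid cells.

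**Figure D5:**
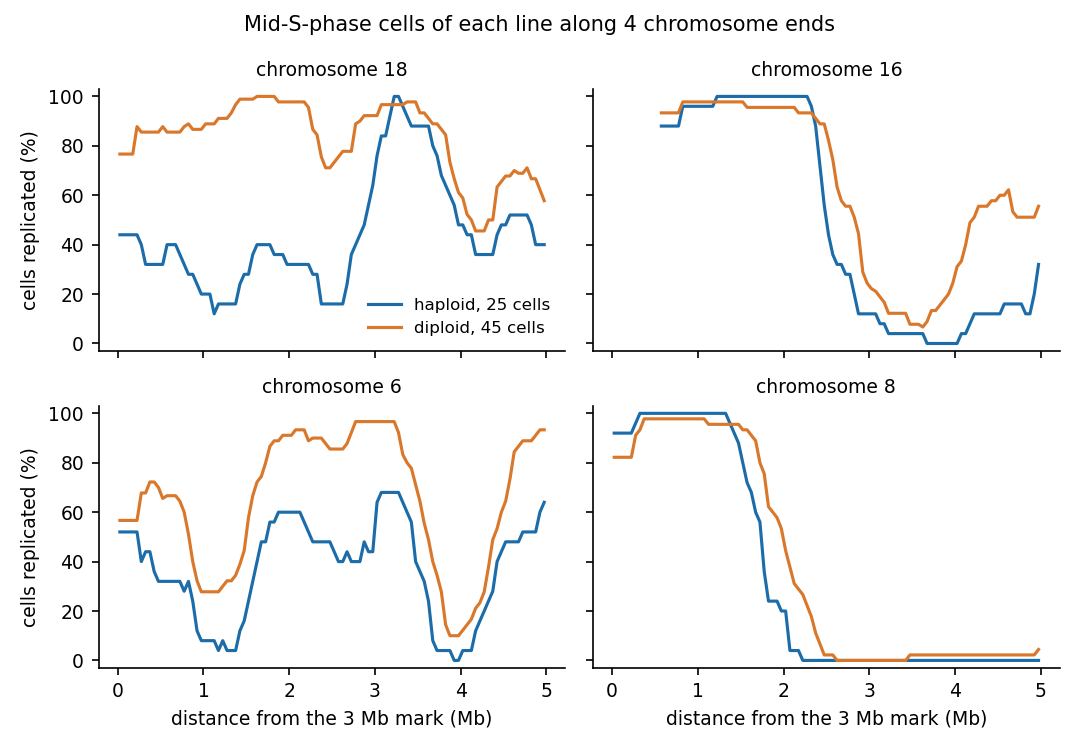
Percentage of mid-S-phase cells in which each bin was replicated (y axis) against distance from the 3 Mb mark in Mb (x axis) on 4 chromosome ends, for 25 haploid and 45 diploid cells. The lines part over the first 3 Mb of chromosome 18 and the last Mb of chromosome 16, lie apart by a steadier amount on chromosome 6, and run together on chromosome 8.

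Per bin, the mean smoothed score of haploid minus diploid cells was taken in steps of equal S-phase progress, and bins at or past 0.5 were counted. The score has no fixed unit and is scaled within each cell. Proximal bins numbered 15 (0.912%) with the higher score in haploid and 52 (3.16%) in diploid cells, against 0.428% and 0.900% of all autosomal bins. The 52 were 36 bins of chromosome 18 and 16 of chromosome 16. Without chromosome 18, 16 bins remained, or 1.03%, against 0.816% of all autosomal bins without that chromosome. With the median score of every chromosome set to 0 in each cell, the 15 bins dropped to 0 and the 52 to 48.

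The chromosome 18 stretch runs from 3.85 to 5.65 Mb and was replicated to 25.9% ± 30.9 in mid-S-phase haploid cells and 91.1% ± 15.4 in diploid ones. It holds Lyzl1 (a lysozyme-like gene), Map3k8 (a kinase of inflammatory signalling), Mtpap (the mitochondrial poly(A) polymerase), Jcad (a junction protein) and Svil (supervillin), and reaches into Zeb1, a zinc finger repressor. Map3k8 was at 16% in haploid and 95% in diploid cells, Svil at 32.8% and 97.8%, and Zeb1 at 26.4% and 79.6%. The chromosome 16 stretch, from 7.1 to 7.9 Mb, was at 12.5% ± 27.8 and 53.9% ± 44.1 and lies in Rbfox1, a long gene for a neuronal splicing factor. Bins with the higher haploid score were short pieces on chromosomes 4 (at Tmem68, Chchd7, Gm11808 and Sdr16c5), 7 (at Vmn1r59, Vmn2r28, Vmn1r61 and Vmn1r62), 9 (with no gene) and 19 (at Slc22a19, Slc22a26 and Slc22a27).

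Variation around the schedule was measured as T_width, the time from 25% to 75% replicated on a sigmoid fitted to the percentage of bins replicated against time from scheduled replication, with each cell left out of its own schedule. It was 2.02 h for proximal and 2.02 h for other bins. Split at 5 h, proximal bins gave 2.27 h when early and 1.94 h when late, and other bins 2.63 h and 1.86 h. More than 1.5 h ahead of schedule, 6.60% of proximal and 5.42% of other bins were already replicated, and more than 1.5 h behind it 5.70% and 4.47% were still unreplicated. Over the 18 ends T_width ran from 1.61 h on chromosome 8 to 2.85 h on chromosome 16, with an SD of 0.327 h.

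Sustained borders, where the schedule crossed 5 h and every scored bin within 0.5 Mb kept to its side (fewer bins where the assembled sequence begins closer by), numbered 24 in the ends, 14 from early to late with growing distance and 10 the other way. A copy number shift lay within 250 kb of the border in 49.8% ± 13.2 of mid-S-phase cells (SD over borders), against 54.4% ± 14.5 for 632 other borders. Shifts were most frequent at borders on chromosome 12, with a shift in 59 of 70 cells, and chromosome 2, with 57 of 70. They were least frequent at one on chromosome 13, with 21 of 70. Other borders ran from 17.1% to 82.9%.

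Departures of whole ends were then compared within cells. For each end a cell's percentage was set against other cells of its line within 5 points of progress. In diploid cells (n = 60) the departures of ends on different chromosomes had a mean r of 0.075 over 153 pairs, with 17 of 18 ends positive on average, and those of other windows 0.009. In haploid cells (n = 75) the values were 0.013 and 0.006. The correlations are weak and all ends of a cell share its amplification and threshold, whose part was not tested. Over all ends together, proximal minus other bins was lowest in diploid cell D10, at -13.1 points, and highest in A10, at 12.5 points.

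Homologs with unlike states, 1 replicated and 1 not, were rare in the ends. They made up 0.699% ± 2.04 of proximal bins and 0.869% ± 1.57 of other bins in the diploid line (SD, n = 63), or -0.17 ± 1.13 points between them. The cells held 47 such stretches in the ends, in 15 cells and on 14 ends, with a median length of 0.75 Mb and a longest of 2.15 Mb on chromosome 11. Cell F11 alone carried 9. Any such call touched 607 proximal bins, or 34.97%, against 40.1% of all autosomal bins, and no bin was called in more than 3 cells. The 129 homolog was the replicated one in 31 stretches and Castaneus in 16. Homologs carry the same state unless parsed reads pass a limit, and that limit was slightly easier for 129, so a difference below it is not counted, and the balance of homologs was not tested.

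Parts of the ends could not be measured. Slots without a state made up 8.63% of the ends and 2.64% of other autosomal slots from 3 Mb on. The largest loss was the first 94 slots of chromosome 14, where 99 gene models, all with provisional Gm or Rik names, lie and 62.03% of the sequence was repeat-masked. Others were on chromosome 7 (30 slots), chromosome 17 (21) and chromosome 16 (11). Chromosomes 4 and 6 had a state in a first slot that lies before the first assembled base. On 15 of the 18 ends at least the first 5 bins had 1 common state in each of the 138 cells, and on 14 exactly 5, which is also the shortest segment the authors allowed. The first 5 bins were replicated to 54.9% on average against 64.8% in the next 5. On chromosome 19 they stood at 65.7% and 94.9%, and on chromosome 5 at 24.3% and 72.9%. Without them the outermost minus the innermost step was -22.3 points.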

How the data were processed

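Binarized and smoothed values were used for 138 S-phase cells. According to the methods, reads were mapped by the authors to mm10 with Bowtie 2, kept unique high-quality reads, removed duplicates with samtools and counted reads in 50 kb windows. They dropped cells with complex karyotypes, rescaled aneuploid chromosomes to G1 and G2 control cells, divided by those controls, masked extreme windows, centered and scaled each cell and median smoothed it, so the deposited smoothed values are a score with no fixed unit. The deposited binarized score is 0 for unreplicated and 1 for replicated, from segments split at 1 threshold per cell. Diploid homologs differ only where parsed reads passed a limit. They hold no read numbers, so depth is unknown and no counting interval is given. 24 more columns fit no labelled sample and were left out.

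Positions were read as bin starts. Diploid states are the mean of both homologs. Scores entered for bins scored in 50% or more of the cells in both lines (45112 autosomal bins). Sigmoids were fitted over intervals of 0.1 h with at least 100 values (20 for a single end). Lines were compared in steps of 5 points of progress. Genes are from GENCODE and sequence from GRCm38.p6. Named were the genes of fixed lists and those of regions past the line limit. Also named were the first 5 protein-coding genes by position on the 3 ends most and 3 ends least replicated in mid-S-phase cells. Elavl1 and the Cd209 and Casp genes were read from the stretches. Some genes that the rule names are not reported here. Members, lists and tests were chosen with earlier results of these data known. Functions were tested on simulated data. Python 3.11.15 with numpy 2.4.6, pandas 2.3.3, scipy 1.17.1 and matplotlib 3.10.9 was used.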

Additional observations from a re-analysis of the deposited data

How the results depend on the processing

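The proximal minus other differences, the scheduled time, the spread of ends and the step were repeated under other settings. So were T_width, the line and homolog comparisons and the joint departures, 178 settings in all. Of these, 174 moved a value by less than 1 SD over cells or ends, or a factor of 1.5 for counts and the spread of ends. The total does not measure stability, since leaving out a chromosome without line-difference bins returns 67 by construction. The mean r of ends with haploid cells alone, 0.013 against 0.044, also counts as unmoved, as its SD over ends was 0.040. Taking the first 3 Mb as the end moved the proximal minus other difference to 5.10 points in haploid and 4.27 points in mid-S-phase cells. The 67 proximal bins with a line difference became 294 at a limit of 0.3 and 31 without chromosome 18; the wider limit counts more by its construction. Signs of the small proximal minus other differences changed under 9 haploid, 9 diploid and 4 mid-S-phase settings. Equal weights for chromosomes were among them (1.15, 1.57 and 1.03 points), but they count the 6 bins of chromosome 14 as a whole end. That end lay 45.2 points above the rest of its chromosome in mid-S-phase cells, and equal weights without it were not calculated. The T_width difference also changed sign with haploid cells alone (-0.0393 h). Leaving out each chromosome in turn gave -2.50 to 0.897 points in haploid, -2.94 to 0.999 in diploid and -3.98 to 0.328 in mid-S-phase cells, and -24.2 to -14.5 for the outermost minus the innermost step. The scheduled time stayed between 4.96 and 5.61 h, the spread of ends between 16.8 and 26.2, and the mean r of ends of both lines, 0.044, between 0.013 and 0.075 (0.040 to 0.047 leaving out 1 diploid cell). Settings that leave out chromosomes for the line difference and step comparison, single cells, the 3 most alike diploid cells for r, or the first 5 bins were chosen after seeing the data. A schedule from binarized states was not run for the departures, which use none. No paired analysis was possible because well numbers do not pair cells of the lines. With no cultures named, unknown depth and 1 segment threshold per cell, differences between cultures cannot be separated from those between lines.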
